A study of Mus musculus with 20 samples.

Results

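The 26S proteasome subunits and their helpers were followed here in mouse cerebral cortex after prenatal cocaine exposure, through every probe whose annotated gene symbol begins with Psma to Psmg and a digit. The symbols came from the platform annotation, and the rule found 49 probes for 47 genes, among 22575 probes of the array and 16504 genes that have a probe with 1 symbol. Of these probes, 18 belong to the core particle (Psma and Psmb), 22 to the cap (Psmc and Psmd) and 9 to activators, an inhibitor and assembly chaperones (Psme, Psmf and Psmg). Psmc2 and Psme4 have 2 probes each. The symbols Psmc3ip and Psme3ip1 also match, although they encode proteins that interact with a subunit rather than subunits. All 49 probes had a value on all 20 arrays.

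The proteasome is the protease complex that removes most short-lived, damaged and ubiquitin-marked proteins of a cell. Its core is a barrel of stacked rings in which the Psma proteins form the gate and some Psmb proteins carry the proteolytic sites, and its cap recognises, unfolds and feeds in substrates. In neurons it shapes synapses by removing synaptic proteins, and under interferon some catalytic subunits are exchanged for inducible ones that favour the making of antigenic peptides.

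Each array compared cortex of offspring of cocaine-treated Swiss Webster (CFW) dams, labelled in channel 1, with cortex of offspring of saline-treated dams, labelled in channel 2. Dams were injected under the skin with 20 mg/kg cocaine hydrochloride or with saline alone, 2 times a day on embryonic days 8 to 18, and saline dams ate the amount of food taken by their cocaine partners. The 4 groups of 5 arrays were adult occipital and adult frontal cortex, taken on postnatal day 30, and fetal occipital and fetal frontal cerebral wall, taken on embryonic day 18, 1 h after an injection. Fetal channels pooled tissue of 2 fetuses, how many animals an adult channel held is not stated, and within a region each slide had litters of its own. Frontal tissue lay anterior to the level of the striatum and occipital tissue posterior to that of the hippocampus. Adult tissue was thus taken weeks after the last injection, and exposure was through the mother in all groups.

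The promoters of 4 members are shown because their ratios kept the same call in both adult regions, or because neighbouring genes went opposite ways. Psmb8 and Psmb9 lie together in the major histocompatibility region of chromosome 17 and encode inducible catalytic subunits, while Psmd11 and Psmd2 encode a lid subunit and a scaffold of the cap. The sequences are from RefSeq on build GRCm38.p6, run 5′ to 3′ on the gene's strand, and cover 250 bases before to 50 bases after a transcript start. They lie at chr17:34197945-34198244 (plus strand) for Psmb8, chr17:34187281-34187580 (minus strand) for Psmb9, chr11:80428365-80428664 (plus strand) for Psmd11 and chr16:20651402-20651701 (plus strand) for Psmd2. Capitals mark matches to the motifs named after them.
Psmb8: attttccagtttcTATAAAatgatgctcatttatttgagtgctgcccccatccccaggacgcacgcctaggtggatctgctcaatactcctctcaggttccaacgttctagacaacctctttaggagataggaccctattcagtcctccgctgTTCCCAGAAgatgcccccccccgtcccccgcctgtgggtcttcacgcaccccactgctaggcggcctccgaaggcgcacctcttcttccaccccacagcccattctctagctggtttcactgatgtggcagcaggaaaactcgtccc
Psmb9: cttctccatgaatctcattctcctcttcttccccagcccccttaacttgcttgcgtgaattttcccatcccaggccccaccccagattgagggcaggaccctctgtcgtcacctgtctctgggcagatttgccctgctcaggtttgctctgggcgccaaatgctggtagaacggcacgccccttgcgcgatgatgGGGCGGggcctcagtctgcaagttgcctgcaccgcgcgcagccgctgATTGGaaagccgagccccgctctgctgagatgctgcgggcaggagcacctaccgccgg
Psmd11: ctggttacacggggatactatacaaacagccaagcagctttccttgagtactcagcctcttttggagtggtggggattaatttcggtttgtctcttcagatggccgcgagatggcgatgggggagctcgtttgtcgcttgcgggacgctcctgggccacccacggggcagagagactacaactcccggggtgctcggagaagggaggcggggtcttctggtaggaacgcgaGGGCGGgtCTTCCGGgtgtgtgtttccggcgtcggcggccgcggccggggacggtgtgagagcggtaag
Psmd2: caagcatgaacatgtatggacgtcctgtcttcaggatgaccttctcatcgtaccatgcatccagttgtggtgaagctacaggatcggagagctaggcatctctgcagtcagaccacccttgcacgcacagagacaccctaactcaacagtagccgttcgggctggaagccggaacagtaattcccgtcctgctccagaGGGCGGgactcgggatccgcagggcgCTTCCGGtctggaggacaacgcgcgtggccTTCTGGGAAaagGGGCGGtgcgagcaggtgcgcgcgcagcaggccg

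Promoters were at hand for 39 of the 47 genes, and 8 short motifs were searched on both strands of each. The ETS core CCGGAAG occurred in 16 of these genes, or 41.0%, against 9.9% of 27025 mouse genes with a promoter, and in both Psmd11 and Psmd2. A gene was counted if any of its promoters matched. The GC box GGGCGG occurred in 21, or 53.8%, against 38.2%, and in Psmb9, Psmd11 and Psmd2. CCAAT was found in 16, or 41.0%, against 41.1%, with one match in Psmb9. TTCNNNGAA, the core of a gamma-activated site, was found in 3, or 7.7%, against 9.6%, and these were Psmb8, Psmd2 and Psmg1. The core of an interferon-stimulated response element, GAAA on either side of any 2 bases, was found in 4, or 10.3%, against 4.0%, namely Psmb3, Psmd4, Psmd9 and Psme1. TGACNNNGC, the core of the antioxidant response element, was in 5, or 12.8%, against 14.0%. TATAAA was in 4, or 10.3%, against 15.7%, among them Psmb8, and TGACGTCA was in 0 of 39 against 2.0%. TTCNNNGAA can share bases with that core where both match. A match here describes letters and not a binding site.

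Each value is the log2 of cocaine over saline, set against the median of its array, so 0 stands for the median probe and 1 for a ratio that is 2 times as large. That direction is likely and not stated: every array carried cocaine in channel 1, with its own Alexa dye, and there was no dye swap, so a dye preference of a probe cannot be told apart from an effect of cocaine. In fetal frontal replicate 1 channel 1 lists both dyes. Ratios carry no level, and signal over background is unknown, so labelled tissue can be checked only loosely. A brightness score was therefore rebuilt from the ratios, since dim spots give quotients of small whole numbers. On its percentile scale, over all probes, neuron marker probes had a median of 71.4, proteasome probes 68.9, choroid plexus and meninges markers 57.6 and olfactory receptors 43.0. Astrocyte and oligodendrocyte markers had 62.9, microglia and macrophage markers 44.1, endothelial and pericyte markers 42.5 and red blood cell markers 27.6. The score thus did not set every marker list above the olfactory receptors. In RNA of whole tissue fewer cells of a type and less RNA per cell cannot be told apart.

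More proteasome probes passed higher than lower in each of the 4 groups. In adult occipital cortex 23 of 49 passed higher and 2 lower, where 48.2% of all 22567 tested probes passed, 24.1% higher and 24.1% lower. Adult frontal cortex had 28 passing higher and 3 lower, where 56.1% of all probes passed, 26.8% higher and 29.4% lower. In fetal occipital wall 11 passed higher and 5 lower, against a background of 24.7%, with 10.5% higher and 14.2% lower. In fetal frontal wall 22 passed higher and 2 lower, against 37.0%, with 18.7% higher and 18.4% lower. With the sign of fetal frontal replicate 1 turned, because of its doubtful dyes, 0 of the 24 fetal frontal calls were made and the fetal occipital count was 8. The shares of all probes passing with that turn are not given here. Passing means a Benjamini-Hochberg adjusted p below 0.05 over all probes in one limma model of the 20 arrays. The medians of the members were 0.67 in adult occipital, 0.92 in adult frontal, 0.15 in fetal occipital and 0.67 in fetal frontal tissue, where the medians of all probes lay between -0.04 and 0.01. Without Psmc3ip and Psme3ip1 the counts were the same and the medians lay between 0.14 and 0.93.

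**Figure D1:**
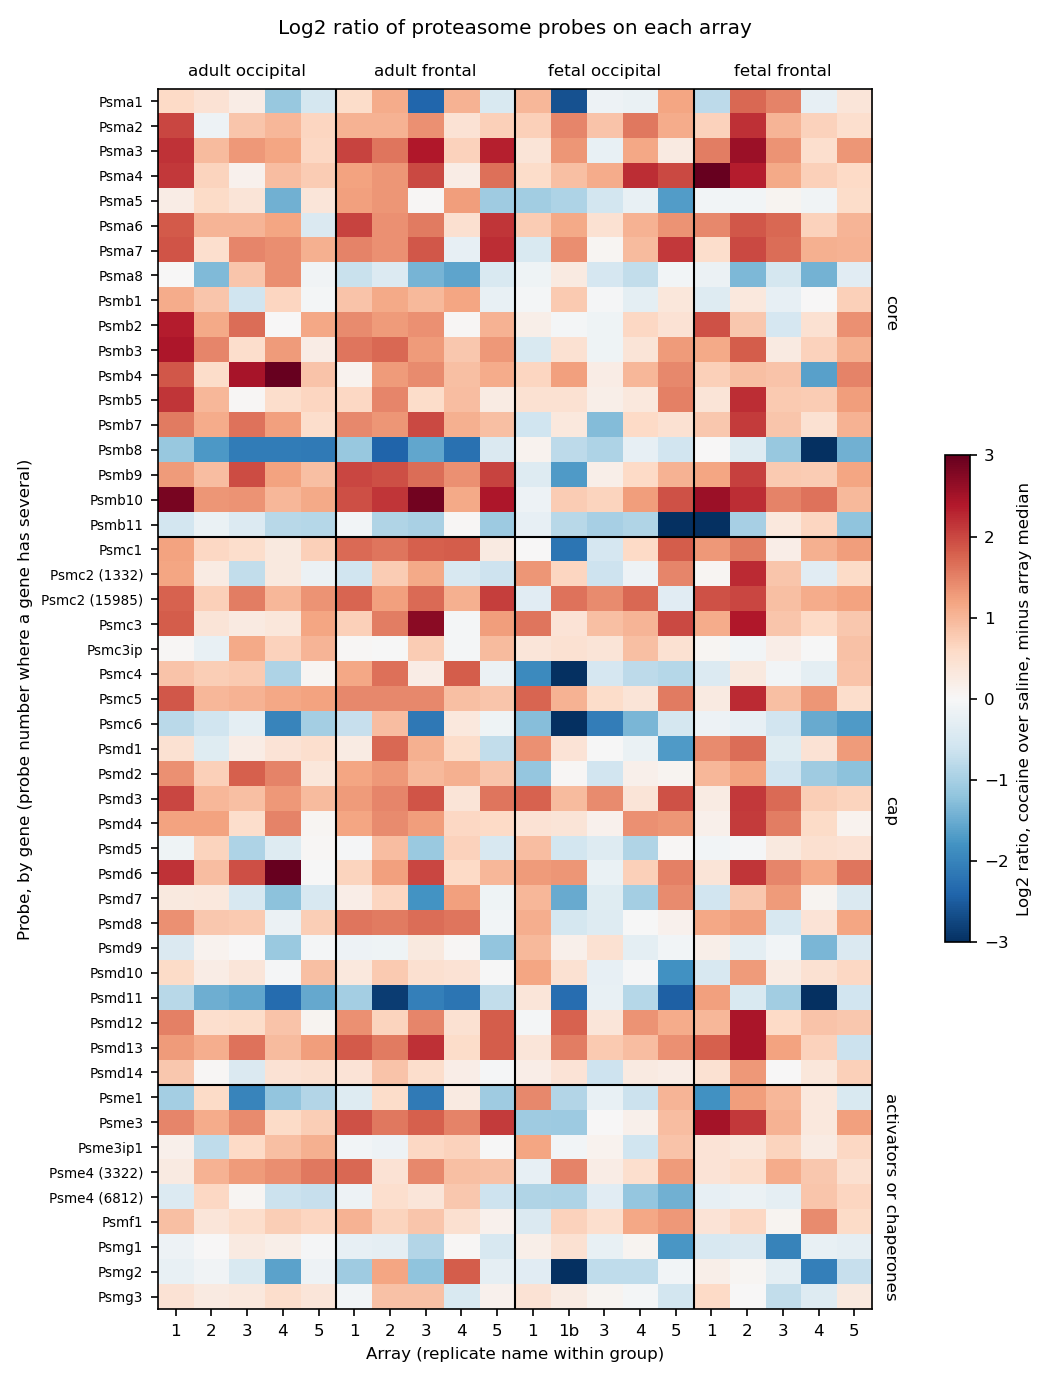
Log2 ratio of cocaine over saline for the 49 proteasome probes (rows, by subset) on the 20 arrays (columns, adult occipital, adult frontal, fetal occipital, fetal frontal), with the colour scale ending at -3 and 3. Most core and cap rows are above 0 in the adult and fetal frontal arrays, Psmb8 and Psmd11 are below 0 on 18 of 20 arrays, and the fetal occipital arrays are the most mixed.

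Counts by subset are set beside the shares of all probes given above. Of the 18 core probes 12 passed higher and 1 lower in adult occipital, 13 and 2 in adult frontal, 4 and 2 in fetal occipital and 11 and 2 in fetal frontal tissue, with medians of 0.92, 1.00, 0.26 and 1.01 in the same order. The 22 cap probes gave 8 higher and 1 lower, 12 and 1, 7 and 2, and 10 and 0, with medians of 0.60, 0.97, 0.17 and 0.69. Among the 9 activator, inhibitor and chaperone probes 3 passed higher in each adult region and 1 in fetal frontal wall, and 1 passed lower in fetal occipital wall, with medians of 0.38, 0.21, 0.03 and 0.16. The median brightness percentiles were 82.3 for core, 66.8 for cap and 51.7 for the remaining probes, and no test of the difference between these subsets was made.

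**Figure D2:**
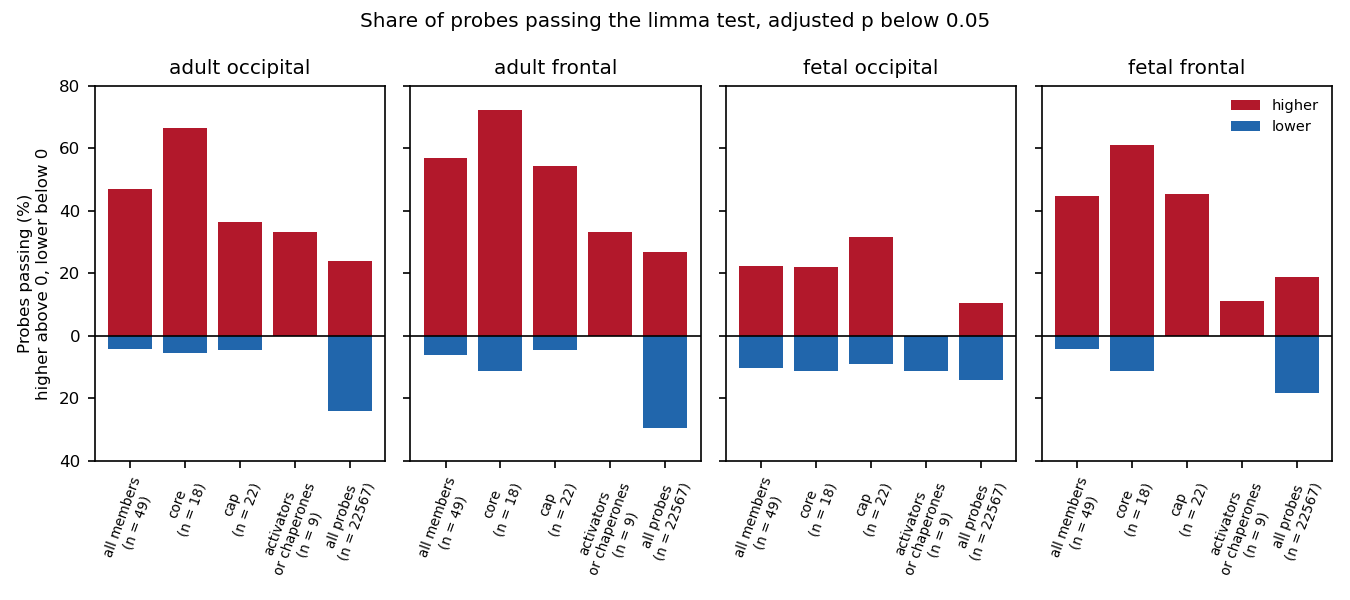
Percent of probes that passed the limma test higher (bars above 0) or lower (bars below 0) in each of the 4 groups of arrays, for all 49 members, their 3 subsets and all 22567 tested probes. In adult frontal cortex 57.1% of the members passed higher and 6.12% lower, against 26.8% and 29.4% of all probes.

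The member ratios followed the brightness score of their probes, as those of all probes did. That score was built from these same ratios and not from a measured intensity, so score and ratio are not independent. How far this shapes the correlations, and the trend removed with the score, was not tested. The Spearman correlation of the member ratio with the brightness score across the 49 probes was 0.65 in adult occipital, 0.74 in adult frontal, 0.53 in fetal occipital and 0.76 in fetal frontal tissue, where all probes gave 0.74, 0.78, 0.46 and 0.72. These are correlations across probes of the same arrays, and probes are not independent replicates. The 21 members above the 75th percentile of brightness had median ratios of 1.18, 1.33, 0.73 and 1.10 in the same order, where all probes of that range had 0.97, 1.19, 0.48 and 0.90. The 10 members up to the 50th percentile had -0.08, 0.06, -0.17 and -0.22, where all probes of that range had -0.63, -0.80, -0.30 and -0.52. After a brightness trend was taken out of each array by loess, the member medians were 0.19 in adult occipital, 0.18 in adult frontal, 0.11 in fetal occipital and 0.12 in fetal frontal tissue.

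With that trend taken out, fewer members passed, in numbers not far from the shares of all probes. In adult occipital cortex 4 passed higher and 2 lower, where 7.27% of all probes passed higher and 6.3% lower, and 5 of the 25 earlier calls remained, for Psmb4, Psmd2, Psmd6, Psmb8 and Psmd11. In adult frontal cortex 4 passed higher and 2 lower, where 9.14% and 12.2% of all probes did, and 5 of 31 calls remained, for Psmb1, Psmd2, Psmd8, Psmb8 and Psmd11. Fetal occipital wall had 1 higher and 5 lower, beside 6.39% and 11.9%. It kept 5 of 16 calls, for Psma2 higher and Psma5, Psmb11, Psmc4 and Psmc6 lower. With trends in both array directions removed as well, 1 of these 16 calls remained, that of Psmc4. Psma2, Psma5, Psmb11 and Psmc6 then had adjusted p of 0.396, 0.993, 0.293 and 0.399. With brightness alone removed fetal frontal wall had 2 higher and 1 lower, beside 3.51% and 4.97%. It kept 2 of 24 calls, for Psmd6 higher and Psmb8 lower. Psmb1 and Psmd2 were higher and Psmb8 and Psmd11 lower in both adult regions with the trend removed. The share of all probes with such shared calls after this correction is not given here. With trends in both array directions removed as well, Psmb1 no longer passed in adult occipital cortex (adjusted p = 0.146), and the other calls of these genes stayed. With the brightness trend alone removed no member was higher in all 4 groups, against 10 without the correction. The sign turned for 21 group means that had passed higher, which became values from -0.56 for Psmb3 to -0.02 for Psmd13, among bright probes of Psma3, Psma4, Psma7, Psmb3, Psmc3, Psmd3, Psmd4, Psmd12, Psmd13 and Psme3.

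**Figure D3:**
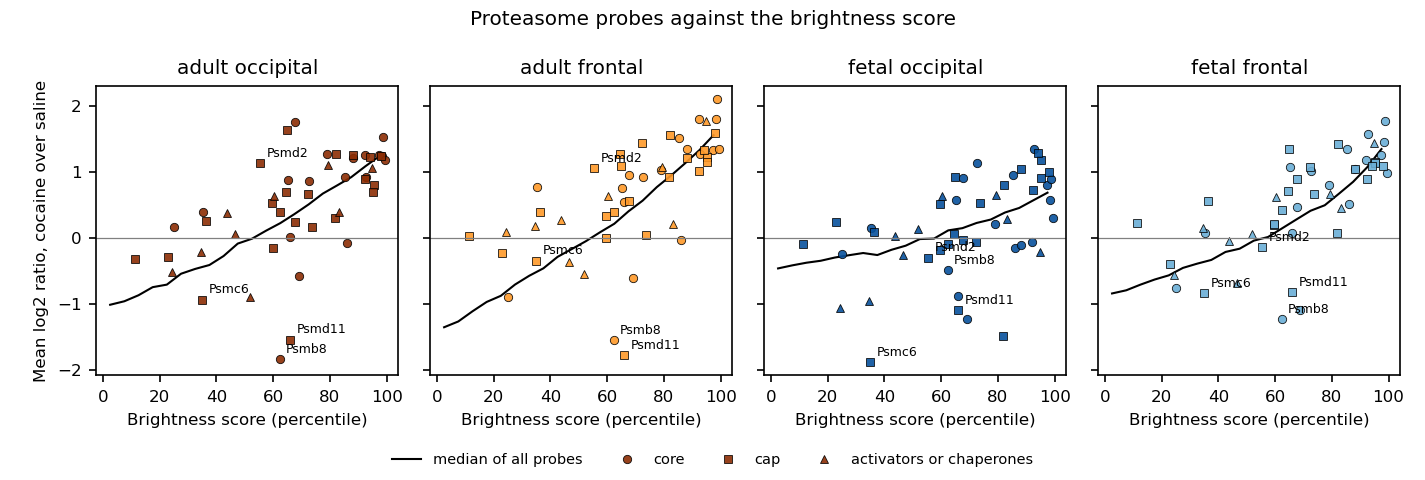
Mean log2 ratio of cocaine over saline of each proteasome probe (vertical) against its brightness score percentile (horizontal) in the 4 groups, with marker shapes for the 3 subsets and a line for the median of all probes along the score. Most bright core and cap probes lie near the line, and Psmb8 and Psmd11 lie below it in all 4 panels.

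The Psma genes encode the gating rings of the core, and 5 of the 8 measured passed higher in at least 3 groups. Psma2, Psma4 and Psma6 passed higher in all 4, and Psma3 and Psma7 in all but fetal occipital wall. Psma2 had ratios of 2.01, -0.16, 0.84, 0.99 and 0.65 on the adult occipital arrays and 1.05, 1.04, 1.37, 0.44 and 0.71 on the adult frontal arrays. The fetal occipital arrays gave 0.73, 1.47, 0.85, 1.57 and 1.11, and the fetal frontal arrays 0.70, 2.20, 1.01, 0.70 and 0.50. All but 1 of these 20 values lay above 0. Its means were 0.86 ± 0.29 (SE, n = 5, adjusted p = 0.0146), 0.92 ± 0.29 (adjusted p = 0.00738), 1.15 ± 0.29 (adjusted p = 0.00529) and 1.02 ± 0.29 (adjusted p = 0.00668). Without adult occipital replicate 1 its adjusted p there was 0.124, and without fetal frontal replicate 2 it was 0.0729 in that group.

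Psma4 was above 0 on all 20 arrays, with 2.12, 0.67, 0.14, 0.93 and 0.77 in adult occipital and 1.21, 1.31, 1.98, 0.22 and 1.66 in adult frontal cortex. In fetal occipital wall it had 0.55, 0.89, 1.11, 2.21 and 1.98, and in fetal frontal wall 3.08, 2.34, 1.15, 0.72 and 0.60. Its mean in fetal frontal wall was 1.58 ± 0.34 or a ratio of 2.99 (adjusted p = 0.000933), beside 0.92 ± 0.34, 1.28 ± 0.34 and 1.35 ± 0.34 in adult occipital, adult frontal and fetal occipital tissue. With the sign of fetal frontal replicate 1 turned, the fetal frontal mean was 0.35 (adjusted p = 0.642) and the adult occipital adjusted p was 0.0984. The adult occipital call rested on single arrays, since its adjusted p was 0.171 without replicate 1 and 0.0585 without replicate 4. Psma3 had 2.16, 0.94, 1.30, 1.19 and 0.62 in adult occipital and 2.02, 1.61, 2.39, 0.69 and 2.34 in adult frontal cortex. Fetal values were 0.39, 1.33, -0.22, 1.16 and 0.27 in occipital and 1.54, 2.58, 1.35, 0.51 and 1.32 in frontal wall. The adult frontal mean of 1.81 ± 0.31 corresponds to a ratio of 3.51 (adjusted p = 2.92e-05), and in fetal occipital wall the mean of 0.58 ± 0.31 missed the threshold (adjusted p = 0.159). With the brightness trend removed Psma3 and Psma4 passed in no group, with adult frontal means of 0.21 and -0.03.

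The other alpha genes were more mixed. Psma6 and Psma7 averaged 1.51 ± 0.29 and 1.34 ± 0.34 in adult frontal cortex, both higher. The Psma6 calls in occipital tissue were lost without adult replicate 1 (adjusted p = 0.08) and without fetal replicate 1b, 4 or 5 (0.0591, 0.0544 and 0.077). Psma5 averaged 0.02 ± 0.32 and 0.55 ± 0.32 in the adult regions without passing, and passed lower in fetal occipital wall at -0.88 ± 0.32 (adjusted p = 0.0435). That call was lost without replicate 1, 1b, 3 or 5 (adjusted p = 0.0823, 0.0932, 0.0584 and 0.193). Psma5 sits at place 187 of 215 in its inferred array row, and with a smooth trend in both array directions taken out that fetal value was 0.11. Psma1 passed in no group, with array values from -2.62 to 1.73. Psma8, a testis form of Psma7, was lower in adult frontal cortex at -0.90 ± 0.31 (adjusted p = 0.0142), and the call was lost without replicate 3 (adjusted p = 0.0653) or 4 (0.0771). Its probe is dim, at percentile 24.9. With the brightness trend removed Psma8 was -0.12 ± 0.28 in adult frontal cortex (adjusted p = 0.796). With trends in both array directions removed as well it was 0.10 there (adjusted p = 0.821). In adult occipital cortex it then passed higher at 0.89 (adjusted p = 0.0283).

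Among catalytic subunits the inducible Psmb8 was lower in both adult regions and in fetal frontal wall, the groups in which its inducible partners Psmb9 and Psmb10 were higher. Psmb8, which replaces Psmb5 in the immunoproteasome, had -1.13, -1.72, -2.09, -2.11 and -2.11 on the adult occipital and -1.13, -2.40, -1.56, -2.24 and -0.44 on the adult frontal arrays. Fetal occipital arrays gave 0.10, -0.78, -0.92, -0.25 and -0.57, and fetal frontal arrays 0.02, -0.38, -1.13, -3.24 and -1.44. All 10 adult values were below 0, and both values above 0 came from fetal replicates 1. Psmb8 was lower at -1.83 ± 0.34 in adult occipital (adjusted p = 0.000316, a ratio of 0.281), -1.55 ± 0.34 in adult frontal (adjusted p = 0.000335) and -1.23 ± 0.34 in fetal frontal tissue (adjusted p = 0.00566). In fetal occipital wall its mean was -0.48 ± 0.34 (adjusted p = 0.298). Without fetal frontal replicate 4, the lowest array, the fetal frontal mean was -0.73 (adjusted p = 0.0879). With the brightness trend removed Psmb8 stood at -2.04 ± 0.34, -1.81 ± 0.34, -0.61 ± 0.34 and -1.40 ± 0.34 in adult occipital, adult frontal, fetal occipital and fetal frontal tissue, and the same 3 groups passed.

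Psmb9, the inducible counterpart of Psmb6, had 1.28, 0.93, 1.96, 1.21 and 0.89 in adult occipital and 2.01, 1.93, 1.68, 1.37 and 2.04 in adult frontal cortex. In the fetal occipital wall it had -0.40, -1.69, 0.18, 0.59 and 1.04 and in the fetal frontal wall 1.18, 2.05, 0.78, 0.75 and 1.20. The 5 adult frontal values were close together, and the fetal occipital values fell on both sides of 0. Psmb9 was higher at 1.25 ± 0.30 (adjusted p = 0.00171), 1.81 ± 0.30 (adjusted p = 2.45e-05) and 1.19 ± 0.30 (adjusted p = 0.00311) in adult occipital, adult frontal and fetal frontal tissue, and -0.05 ± 0.30 in fetal occipital wall did not pass. Its spot is the last of its row, and with the trend along the row removed the fetal occipital mean was 0.83. Once brightness was taken out it was 0.22 ± 0.27 in adult occipital and 0.52 ± 0.27 in adult frontal cortex, and neither passed. With trends in brightness and in both array directions removed it passed higher in both, at 0.63 in adult occipital (adjusted p = 0.0473) and 0.81 in adult frontal cortex (adjusted p = 0.00785).

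Psmb10, the inducible counterpart of Psmb7, had the largest mean ratio of the core in adult frontal cortex. Its values were 2.86, 1.33, 1.35, 1.00 and 1.15 on adult occipital and 1.92, 2.15, 2.90, 1.13 and 2.43 on adult frontal arrays. The fetal arrays gave -0.14, 0.77, 0.68, 1.25 and 1.91 in occipital and 2.57, 2.21, 1.49, 1.63 and 0.97 in frontal wall. Of the 20 values 19 were above 0, and adult occipital replicate 1 stood apart from the other arrays of its group. The means were 1.54 ± 0.31 (adjusted p = 0.0006), 2.11 ± 0.31 (adjusted p = 8.37e-06), 0.89 ± 0.31 (adjusted p = 0.0365) and 1.78 ± 0.31 (adjusted p = 0.000271) in adult occipital, adult frontal, fetal occipital and fetal frontal tissue. The fetal occipital call was lost without replicate 1b (adjusted p = 0.0687), 3 (0.0568), 4 (0.114) or 5 (0.202). This is one of the brightest members, at percentile 98.6, and with the brightness trend removed its adult frontal mean was 0.47 ± 0.22 (adjusted p = 0.132).

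The constitutive Psmb5, which carries the chymotrypsin-like site, was above 0 on every array. Adult occipital arrays gave 2.14, 1.00, 0.04, 0.54 and 0.66 and adult frontal arrays 0.61, 1.48, 0.55, 0.93 and 0.24. On fetal arrays it gave 0.46, 0.45, 0.18, 0.31 and 1.51 in occipital and 0.38, 2.21, 0.79, 0.76 and 1.26 in frontal wall. Psmb5 was higher at 0.87 ± 0.30 in adult occipital (adjusted p = 0.0174), 0.76 ± 0.30 in adult frontal (adjusted p = 0.0306) and 1.08 ± 0.30 in fetal frontal tissue (adjusted p = 0.00606), and 0.58 ± 0.30 in fetal occipital wall did not pass. Single arrays carried these calls: the adjusted p was 0.151 and 0.0504 in adult occipital cortex without replicate 1 or 2, 0.147 and 0.0766 in adult frontal cortex without replicate 2 or 4, and 0.0643 in fetal frontal wall without replicate 2. In adult occipital and adult frontal cortex each Psmb8 value was below each Psmb5 value, although one replaces the other in the same position of the ring. The difference between the probes was not tested.

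Psmb7, the constitutive subunit with the trypsin-like site, had 1.56, 1.12, 1.63, 1.24 and 0.54 in adult occipital and 1.45, 1.33, 1.99, 1.07 and 0.90 in adult frontal cortex. The fetal arrays gave -0.60, 0.31, -1.30, 0.60 and 0.45 in occipital and 0.80, 2.10, 0.83, 0.47 and 1.04 in frontal wall. All adult and fetal frontal values were above 0, and fetal occipital values lay on both sides. Psmb7 was higher at 1.22 ± 0.29, 1.35 ± 0.29 and 1.05 ± 0.29 in adult occipital, adult frontal and fetal frontal tissue (adjusted p = 0.00167, 0.000297 and 0.00604), and its fetal occipital mean was -0.11 ± 0.29. Without fetal frontal replicate 2 the adjusted p of the fetal frontal mean was 0.0619. Once brightness was taken out Psmb7 was 0.30 and 0.21 in adult occipital and adult frontal cortex and passed in no group. Psmb6, the constitutive caspase-like subunit, was not analysed here.

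**Figure D4:**
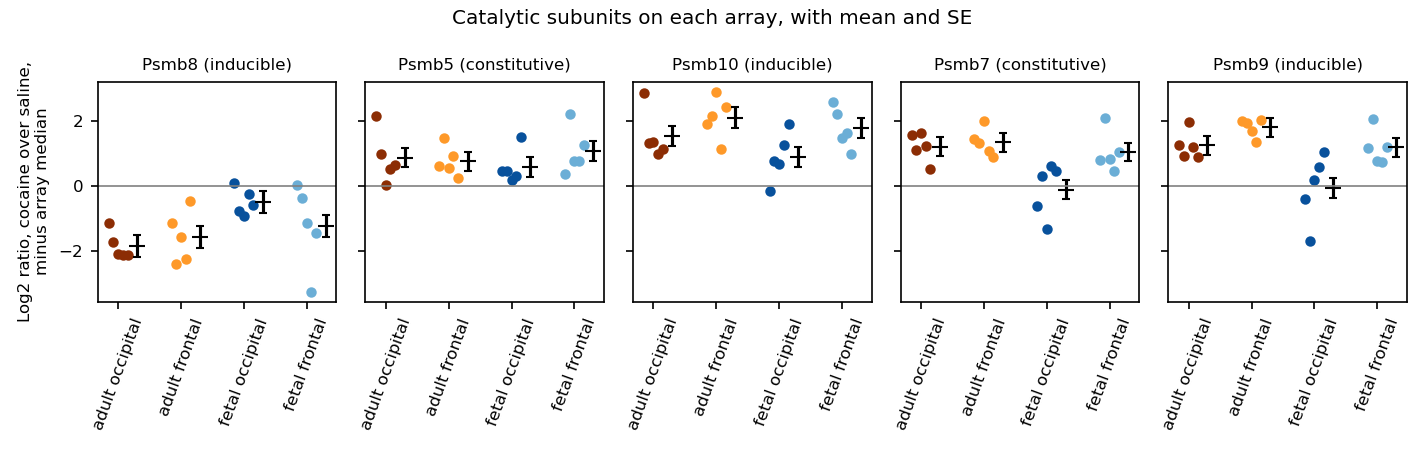
Log2 ratios of cocaine over saline on single arrays (points) with group means and SE (bars) for 3 inducible catalytic subunits, Psmb8, Psmb9 and Psmb10, and the constitutive Psmb5 and Psmb7, in adult occipital, adult frontal, fetal occipital and fetal frontal tissue. All 10 adult Psmb8 values are below 0, and all 10 adult values of each other subunit are above 0.

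The remaining beta subunits mostly had high ratios. Psmb4, a structural subunit at which rings join, had 1.85, 0.55, 2.47, 3.10 and 0.86 in adult occipital and 0.10, 1.27, 1.42, 0.90 and 1.12 in adult frontal cortex. Values on the fetal arrays were 0.64, 1.23, 0.22, 1.01 and 1.45 in occipital and 0.72, 0.89, 0.86, -1.63 and 1.48 in frontal wall. One array of 20, fetal frontal replicate 4, was below 0. Psmb4 had the largest adult occipital mean of the core, 1.77 ± 0.36 or a ratio of 3.4 (adjusted p = 0.000567), and passed higher in adult frontal cortex at 0.96 ± 0.36 (adjusted p = 0.0225). The adult frontal call was lost without replicate 2 (adjusted p = 0.0716), 3 (0.0814) or 5 (0.0541). In fetal frontal wall its mean was 0.47 ± 0.36, and 0.99 without replicate 4 (adjusted p = 0.0307). After the brightness trend was removed the adult occipital mean was 1.41 ± 0.35 (adjusted p = 0.0103). Psmb2 and Psmb3 averaged 1.27 ± 0.32 and 1.18 ± 0.30 in adult occipital cortex and passed higher in all groups but fetal occipital wall. In fetal frontal wall the Psmb3 call was lost without replicate 2 (adjusted p = 0.0777) and the Psmb2 call without replicate 1, 2, 4 or 5 (0.225, 0.0965, 0.0569 and 0.152). Psmb1 passed higher in adult frontal cortex at 0.78 ± 0.28, a call lost without replicate 2 (adjusted p = 0.0709), 3 (0.0582) or 4 (0.0727), and its probe is dim, at percentile 35.2. With the brightness trend removed it was 0.83 ± 0.28 in adult occipital (adjusted p = 0.0491) and 1.29 ± 0.28 in adult frontal cortex (adjusted p = 0.00236). With trends in both array directions removed as well Psmb1 was 0.58 in adult occipital (adjusted p = 0.146) and 1.12 in adult frontal cortex (adjusted p = 0.00421). Psmb11, the thymus form of the beta subunit that Psmb5 and Psmb8 encode elsewhere, was lower in fetal occipital wall at -1.23 ± 0.43 (adjusted p = 0.0357) and in fetal frontal wall at -1.10 ± 0.43 (adjusted p = 0.0439). The fetal occipital call of Psmb11 was lost without replicate 1b, 3, 4 or 5 (adjusted p = 0.0519, 0.0608, 0.0606 and 0.27). Its fetal frontal mean was -0.31 without replicate 1 (adjusted p = 0.527), and the adjusted p was 0.0937 and 0.0913 without replicate 2 or 5.

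The cap holds a ring of ATPases that unfold substrates, encoded by Psmc1 to Psmc6, and these split into several patterns. Psmc5 was above 0 on all arrays, with 1.87, 1.00, 1.03, 1.17 and 1.21 in adult occipital and 1.45, 1.44, 1.45, 0.91 and 0.83 in adult frontal cortex. The fetal arrays read 1.74, 1.04, 0.54, 0.38 and 1.56 in occipital and 0.27, 2.23, 0.90, 1.32 and 0.52 in frontal wall. The 4 means were alike, at 1.25 ± 0.28, 1.22 ± 0.28, 1.05 ± 0.28 and 1.05 ± 0.28, and all passed higher (adjusted p = 0.00106, 0.000561, 0.00782 and 0.00467 in adult occipital, adult frontal, fetal occipital and fetal frontal tissue). Without fetal frontal replicate 2 the adjusted p there was 0.0571. After the brightness trend was removed the Psmc5 means were 0.33, 0.07, 0.56 and 0.16 in that group order, and none passed. Psmc3 likewise passed higher in all 4 groups, at 0.80 ± 0.33, 1.23 ± 0.33, 1.18 ± 0.33 and 1.15 ± 0.33 in the same order. The Psmc3 call was lost in adult occipital cortex without replicate 1, 2, 4 or 5 (adjusted p = 0.223, 0.056, 0.0516 and 0.124), in fetal occipital wall without replicate 5 (0.0694) and in fetal frontal wall without replicate 2 (0.0803). Psmc3 is bright, at percentile 95.4, and with the brightness trend removed it was -0.33, -0.19, 0.54 and -0.04. Psmc1 averaged 1.44 ± 0.35 in adult frontal cortex and 1.08 ± 0.35 in fetal frontal wall, both higher, and the fetal frontal adjusted p was 0.0794 without replicate 2 and 0.05 without replicate 5.

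The 2 probes of Psmc2 disagreed. Probe 15985 had 1.76, 0.72, 1.55, 1.00 and 1.34 in adult occipital and 1.76, 1.23, 1.70, 1.07 and 2.07 in adult frontal cortex. In fetuses it stood at -0.35, 1.62, 1.41, 1.71 and -0.34 in occipital and 1.91, 1.995, 0.90, 1.11 and 1.21 in frontal wall. Except for 2 fetal occipital arrays every value was above 0, and the means of 1.27 ± 0.30, 1.57 ± 0.30, 0.81 ± 0.30 and 1.43 ± 0.30 all passed higher, with adjusted p of 0.000101 in adult frontal and 0.0481 in fetal occipital tissue. The fetal occipital call was lost without replicate 1b (adjusted p = 0.205), 3 (0.162) or 4 (0.221). Probe 1332 had 1.19, 0.25, -0.74, 0.30 and -0.17 in adult occipital and -0.60, 0.76, 1.14, -0.47 and -0.61 in adult frontal cortex. It had 1.33, 0.64, -0.62, -0.15 and 1.47 in fetal occipital and 0.05, 2.24, 0.83, -0.35 and 0.58 in fetal frontal wall. Both signs occurred in every group, and means of 0.17 ± 0.35, 0.04 ± 0.35, 0.53 ± 0.35 and 0.67 ± 0.35 did not pass. Where on the transcript each probe binds is not known here.

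Psmc4 was the member that passed in opposite directions. Its ratios were 0.84, 0.75, 0.79, -0.92 and 0.05 in adult occipital and 1.15, 1.65, 0.22, 1.81 and -0.18 in adult frontal cortex. In fetal occipital wall they were -1.90, -3.39, -0.50, -0.78 and -0.85, and in fetal frontal wall -0.41, 0.30, -0.08, -0.29 and 0.85. Every fetal occipital value was below 0, lowest in replicates 1 and 1b. Psmc4 was lower there at -1.48 ± 0.35 (adjusted p = 0.0038) and higher in adult frontal cortex at 0.93 ± 0.35 (adjusted p = 0.0258). The adult frontal call was lost without replicate 1 (adjusted p = 0.0681), 2 (0.118) or 4 (0.132). Without fetal occipital replicates 1 and 1b together the fetal occipital mean was -0.71 (adjusted p = 0.202), and fitted to that group's arrays alone its adjusted p was 0.0592. Psmc6 gave -0.80, -0.59, -0.28, -1.99 and -1.01 in adult occipital and -0.69, 0.93, -2.15, 0.32 and -0.13 in adult frontal cortex. Its fetal values were -1.28, -4.18, -2.07, -1.37 and -0.54 in occipital and -0.16, -0.25, -0.58, -1.52 and -1.69 in frontal wall. It was below 0 on 18 of 20 arrays and lower in fetal occipital wall at -1.89 ± 0.40 (adjusted p = 0.00153), with -0.94 ± 0.40 in adult occipital cortex (adjusted p = 0.0505). The spots of Psmc4 and Psmc6 sit at places 194 and 204 of 215 in their rows, and with trends in brightness and in both array directions removed the fetal occipital means were -0.80 for Psmc4 (adjusted p = 0.0429) and -0.41 for Psmc6 (adjusted p = 0.399).

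The Psmd proteins build the scaffold, ubiquitin receptors and lid of the cap. Psmd3, Psmd6 and Psmd13, lid subunits, passed higher in all 4 groups. Psmd3 had 1.995, 0.99, 0.91, 1.30 and 0.96 in adult occipital and 1.29, 1.46, 1.89, 0.39 and 1.61 in adult frontal cortex. It had 1.78, 0.94, 1.43, 0.39 and 1.91 in fetal occipital and 0.24, 2.12, 1.70, 0.74 and 0.66 in fetal frontal wall, so all 20 values were above 0. Its means were 1.23 ± 0.30, 1.33 ± 0.30, 1.29 ± 0.30 and 1.09 ± 0.30 (adjusted p = 0.00174, 0.000408, 0.00297 and 0.00513 in adult occipital, adult frontal, fetal occipital and fetal frontal tissue). Without fetal frontal replicate 2 the last of these was 0.0532. Once brightness was taken out the Psmd3 means were 0.14, -0.04, 0.69 and -0.03 in the same group order, and none passed.

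Psmd6 had the widest spread of the 3, with 2.17, 0.93, 1.93, 3.17 and -0.004 in adult occipital and 0.66, 1.22, 2.02, 0.59 and 1.00 in adult frontal cortex. Fetal values were 1.27, 1.33, -0.19, 0.72 and 1.50 in occipital and 0.38, 2.14, 1.47, 1.15 and 1.61 in frontal wall. In adult occipital cortex the mean was 1.64 ± 0.34, a ratio of 3.11 (adjusted p = 0.000695), although replicate 5 sat at the array median. Its means were 1.10 ± 0.34, 0.93 ± 0.34 and 1.35 ± 0.34 in adult frontal, fetal occipital and fetal frontal tissue. The adult frontal call was lost without replicate 3 (adjusted p = 0.0573) and the fetal occipital one without replicate 1, 1b, 4 or 5 (adjusted p = 0.101, 0.13, 0.0784 and 0.164). Once brightness was taken out Psmd6 remained higher in adult occipital cortex at 1.36 ± 0.32 and in fetal frontal wall at 1.13 ± 0.32.

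Psmd13 had 1.29, 1.08, 1.63, 0.94 and 1.25 in adult occipital and 1.85, 1.55, 2.18, 0.56 and 1.81 in adult frontal cortex. Fetal arrays gave 0.35, 1.53, 0.78, 0.94 and 1.37 in occipital and 1.79, 2.45, 1.20, 0.69 and -0.64 in frontal wall. One value, of fetal frontal replicate 5, was below 0. The means were 1.24 ± 0.32, 1.59 ± 0.32, 1.00 ± 0.32 and 1.10 ± 0.32 (adjusted p = 0.0027, 0.000136, 0.0218 and 0.00806 in adult occipital, adult frontal, fetal occipital and fetal frontal tissue). The fetal occipital call was lost without replicate 1b, 4 or 5 (adjusted p = 0.0883, 0.0521 and 0.0835), and the fetal frontal one without replicate 2 (0.0905). With the brightness trend removed Psmd13 was -0.02 and 0.02 in adult occipital and adult frontal cortex and passed in no group. The ubiquitin receptor Psmd4 was above 0 on all arrays and passed higher at 0.90 ± 0.30, 1.01 ± 0.30 and 0.90 ± 0.30 in adult occipital, adult frontal and fetal frontal tissue. The Psmd4 call was lost in adult occipital cortex without replicate 1, 2 or 4 (adjusted p = 0.0508, 0.0544 and 0.0727) and in fetal frontal wall without replicate 2 or 3 (0.162 and 0.0824). The lid subunit Psmd12 averaged 1.16 ± 0.30 in adult frontal cortex and passed in all groups but adult occipital cortex. Its fetal occipital call was lost without replicate 1b, 4 or 5 (adjusted p = 0.146, 0.102 and 0.0854) and its fetal frontal call without replicate 2 (0.058).

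Psmd11, a lid subunit that holds cap and core together, went the other way. It had -0.83, -1.46, -1.57, -2.31 and -1.54 in adult occipital and -1.02, -2.85, -2.05, -2.19 and -0.75 in adult frontal cortex. In fetal occipital wall it had 0.35, -2.28, -0.22, -0.86 and -2.45, and in fetal frontal wall 1.23, -0.45, -1.04, -3.28 and -0.57. All 10 adult values were below 0, and the 2 values above 0 were those of replicate 1 in each fetal region, as for Psmb8. Psmd11 was lower in adult occipital cortex at -1.54 ± 0.42 (adjusted p = 0.0045, a ratio of 0.344) and in adult frontal cortex at -1.77 ± 0.42 (adjusted p = 0.000839, a ratio of 0.292). The fetal means of -1.09 ± 0.42 in occipital and -0.82 ± 0.42 in frontal wall did not pass (adjusted p = 0.0581 and 0.127). Without replicate 1 of its own group each fetal mean passed lower, at -1.45 (adjusted p = 0.022) in occipital and -1.33 (0.0198) in frontal wall. After the brightness trend was removed the adult means were -1.85 ± 0.46 and -2.15 ± 0.46, in occipital and frontal cortex, and both passed lower.

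Psmd2, the scaffold on which shuttle factors dock, was higher in adults alone among the calls. It had 1.38, 0.71, 1.78, 1.50 and 0.35 in adult occipital and 1.18, 1.29, 0.97, 1.05 and 0.83 in adult frontal cortex, all above 0. On fetal arrays it gave -1.16, 0.05, -0.58, 0.14 and 0.07 in occipital and 0.99, 1.20, -0.58, -1.06 and -1.22 in frontal wall, on both sides of 0. The adult means were 1.14 ± 0.32 (adjusted p = 0.0046) in occipital and 1.06 ± 0.32 (adjusted p = 0.00519) in frontal cortex, and the fetal ones -0.30 ± 0.32 and -0.14 ± 0.32. With the brightness trend removed the adult means were 1.11 ± 0.31 and 1.01 ± 0.31, and both passed. The difference adult minus fetal was 1.44 ± 0.45 in occipital and 1.20 ± 0.45 in frontal tissue, and neither passed (adjusted p = 0.0588 and 0.239).

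Of the other cap probes, Psmd8 passed higher in adult frontal cortex at 1.28 ± 0.31 and Psmd1 in fetal frontal wall at 0.89 ± 0.35 (adjusted p = 0.000933 and 0.0452). The Psmd1 call was lost without replicate 1, 2, 4 or 5 (adjusted p = 0.134, 0.194, 0.0562 and 0.125). Psmd14, the deubiquitinase of the lid, and its partner Psmd7 passed in no group, with means from 0.09 to 0.56 for Psmd14 and from -0.32 to 0.23 for Psmd7. With the brightness trend removed Psmd14 passed higher at 0.88 in adult frontal (adjusted p = 0.0115) and 0.88 in fetal frontal tissue (adjusted p = 0.0266). With trends in brightness and in both array directions removed Psmd7 passed higher at 0.99 in adult occipital (adjusted p = 0.0406), 1.44 in adult frontal (adjusted p = 0.00272) and 1.18 in fetal frontal tissue (adjusted p = 0.0242). Its probe is dim, at percentile 11.2, and its uncorrected means in these groups were -0.32, 0.03 and 0.23. All probes of like brightness had medians of -0.87, -1.11 and -0.71 there. With the brightness trend alone removed Psmd7 passed in no group. Psmd5, Psmd9 and Psmd10 are chaperones that build the ATPase ring, although their symbols place them in the cap, and none passed in any group. Psmc3ip passed in none either.

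Activators replace the cap at the ends of the core. Psme3, the nuclear activator subunit, had 1.47, 1.11, 1.41, 0.56 and 0.73 in adult occipital and 1.92, 1.59, 1.80, 1.48 and 2.10 in adult frontal cortex. Values on the fetal arrays were -1.06, -1.10, 0.02, 0.15 and 0.93 in occipital and 2.51, 2.12, 1.05, 0.31 and 1.22 in frontal wall. Adult and fetal frontal values were all above 0, and fetal occipital values fell on both sides. It was higher at 1.06 ± 0.30 in adult occipital (adjusted p = 0.00598), 1.77 ± 0.30 in adult frontal (adjusted p = 3.27e-05, a ratio of 3.42) and 1.44 ± 0.30 in fetal frontal tissue (adjusted p = 0.000796), with -0.21 ± 0.30 in fetal occipital wall. Psme3 has a brightness percentile of 94.8, and with the brightness trend removed its adult means were -0.06 ± 0.24 in occipital and 0.38 ± 0.24 in frontal cortex, and in fetal occipital wall it passed lower at -0.83 ± 0.24. Its spot sits at place 197 of 215 in its row, and with trends in both array directions removed as well the fetal occipital mean was 0.33 (adjusted p = 0.324). Psme1, an interferon-inducible activator subunit, had -1.03, 0.57, -1.98, -1.18 and -0.89 in adult occipital and -0.38, 0.56, -2.13, 0.27 and -1.06 in adult frontal cortex. The fetal arrays read 1.44, -0.88, -0.23, -0.65 and 1.03 in occipital and -1.81, 1.26, 1.00, 0.31 and -0.46 in frontal wall. Both signs occurred in every group, and Psme1 passed in none, with an adult occipital mean of -0.90 ± 0.41 (adjusted p = 0.0674, and 0.0254 without replicate 2). Psme2, its partner, was not analysed here.

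Psme4, an activator linked to histone turnover, has 2 probes that differed. Probe 3322 had 0.26, 1.04, 1.27, 1.40 and 1.59 in adult occipital and 1.72, 0.43, 1.44, 0.90 and 0.87 in adult frontal cortex. In fetuses it stood at -0.24, 1.49, 0.22, 0.50 and 1.27 in occipital and 0.41, 0.52, 1.11, 0.81 and 0.48 in frontal wall. All but 1 were above 0, and the probe was higher at 1.11 ± 0.28 (adjusted p = 0.00226) in adult occipital and 1.07 ± 0.28 (adjusted p = 0.0017) in adult frontal cortex. Probe 6812 had -0.42, 0.61, 0.06, -0.65 and -0.69 in adult occipital and -0.14, 0.50, 0.37, 0.81 and -0.63 in adult frontal cortex. It had -0.91, -0.93, -0.33, -1.17 and -1.44 in fetal occipital and -0.24, -0.19, -0.26, 0.84 and 0.64 in fetal frontal wall. All fetal occipital values were below 0, where it was lower at -0.96 ± 0.27 (adjusted p = 0.0127, and 0.0614 without replicate 5). The brightness percentiles of the probes were 79.5 for 3322 and 34.4 for 6812. Psmf1, a proteasome inhibitor, averaged 0.64 ± 0.27, 0.63 ± 0.27, 0.64 ± 0.27 and 0.62 ± 0.27 in adult occipital, adult frontal, fetal occipital and fetal frontal tissue and passed higher in both adult groups (adjusted p = 0.047 and 0.0425). These Psmf1 calls were marginal: leaving out any one adult occipital array gave adjusted p from 0.0615 to 0.125, and adult frontal replicates 1 to 4 gave 0.0629 to 0.138. The assembly chaperones Psmg1, Psmg2 and Psmg3 and the interacting protein Psme3ip1 passed in no group.

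The calls of single probes were set side by side across the groups, which were fitted in one model. Higher in all 4 groups were 10 probes, or 20.4%, where 4.84% of all probes were, for Psma2, Psma4, Psma6, Psmb10, Psmc2, Psmc3, Psmc5, Psmd3, Psmd6 and Psmd13, and 10 further probes were higher in 3. Both adult groups shared 23 higher and 2 lower probes, or 46.9% and 4.08%, where 20.6% and 21.8% of all probes were shared. A further 13 probes, or 26.5%, passed in no group, where 26.6% of all probes did. Above 0 on each of the 20 arrays were 5 members, Psma4, Psmb5, Psmc5, Psmd3 and Psmd4, and 0 members were below 0 on each. The shares of all probes above or below 0 on every array, or higher in 3 groups, are not given here. These counts are therefore not shown to be particular to the proteasome. Array medians of the members ran from 0.47 to 1.19 in adult occipital, 0.24 to 1.22 in adult frontal, -0.12 to 0.86 in fetal occipital and 0.41 to 1.28 in fetal frontal tissue. Once brightness was taken out the array medians ran from -0.21, on fetal occipital replicate 3, to 0.47, on adult frontal replicate 2. Without fetal frontal replicate 2 the fetal frontal count was 10 in place of 24, and the fetal occipital count of 16 was 8, 9 and 7 without replicates 1b, 4 and 5. Fitted to its own arrays alone, fetal occipital wall gave 6. The shares of all probes passing in these settings are not given here, so the lower counts are not shown to be particular to the proteasome.

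**Figure D5:**
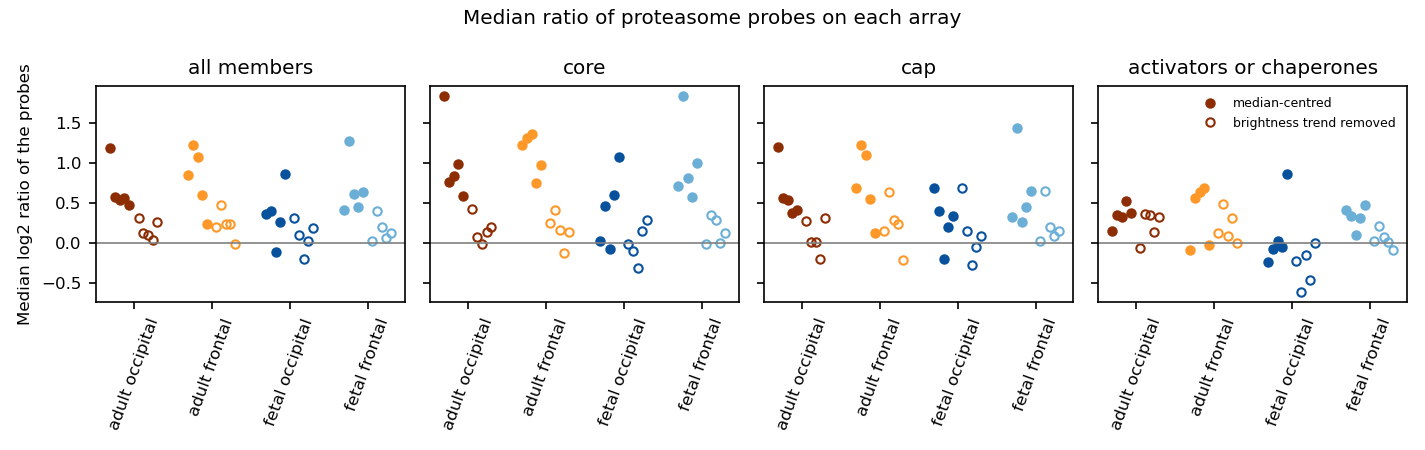
Median log2 ratio of cocaine over saline over the 49 proteasome probes on each of the 20 arrays, as centred on the array median and with the brightness trend removed, in adult occipital, adult frontal, fetal occipital and fetal frontal tissue. Over all 49 probes 19 of 20 centred medians are above 0, and with the trend removed all but 2 arrays are above 0 and none reaches 0.5. The subset medians spread more widely with the trend removed, up to 0.69 for cap probes on fetal occipital replicate 1, and more of them lie below 0.

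Ages and regions were compared through differences of the group means. Of the members 1 passed, Psmc4, whose ratio in occipital tissue was higher in adults than in fetuses by 1.79 ± 0.50 (adjusted p = 0.0435), with means of 0.30 ± 0.35 in adult and -1.48 ± 0.35 in fetal tissue. Of all probes 3.60% passed this difference. It no longer passed with the replicate block, with the brightness or position trend removed, with fetal frontal replicate 1 turned, or fitted to the arrays of these groups alone (adjusted p = 0.0573), where 1 other member passed lower. Without fetal occipital replicates 1 and 1b together it was 1.01 (adjusted p = 0.265). Leaving out single arrays ended the call for adult occipital replicates 1 (adjusted p = 0.0762), 2 (0.0977), 3 (0.118) and 5 (0.055), fetal occipital replicates 1 (0.0835) and 1b (0.0965) and adult frontal replicate 1 (0.0509). Adult minus fetal in frontal tissue gave 0 members in limma, against 0.0266% of all probes in either direction and 0.00443% higher, and 1 member was higher at an unadjusted p below 0.05. Occipital minus frontal gave 0 in adults, where 0% of all probes passed and 1 member had an unadjusted p below 0.05, and 0 in fetuses, where 0.0222% passed and 7 members were lower at an unadjusted p below 0.05. In fetal tissue the smallest adjusted p of a member was that of Psme3, -1.65 ± 0.43 (adjusted p = 0.0977). The member medians of these differences were 0.31 for adult minus fetal in occipital and 0.16 in frontal tissue, and -0.13 for occipital minus frontal in adults and -0.33 in fetuses. A difference that did not pass is not shown to be absent at this number of arrays.

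Other genes of the pathway are given with the shares of all probes as background, which were 24.1% higher and 24.1% lower in adult occipital, 26.8% and 29.4% in adult frontal, 10.5% and 14.2% in fetal occipital and 18.7% and 18.4% in fetal frontal tissue. No test of these lists against the proteasome probes was made. Of 15 probes for partners and assembly factors 2 passed higher and 0 lower in adult occipital, 7 and 0 in adult frontal, 0 and 3 in fetal occipital and 4 and 0 in fetal frontal tissue. Rad23b, a shuttle factor for ubiquitinated proteins, was higher at 2.25 ± 0.33, 1.59 ± 0.33 and 0.95 ± 0.33 in adult occipital, adult frontal and fetal frontal tissue, and the core assembly factor Pomp at 1.12 ± 0.31 in adult frontal cortex. Ube3c, a ligase on the proteasome, was higher in adult frontal cortex (0.94 ± 0.26) and lower in fetal occipital wall (-0.997 ± 0.26). Among 11 probes for regulators of proteasome genes 0 passed higher and 2 lower, 1 and 2, 0 and 3, and 1 and 2 in adult occipital, adult frontal, fetal occipital and fetal frontal tissue. Ngly1, which activates the transcription factor Nfe2l1 by removing its sugars, was lower in all 4 groups, at -1.58 ± 0.38, -1.97 ± 0.38, -1.73 ± 0.38 and -1.31 ± 0.38 in that order. Nfe2l1 itself, which drives proteasome genes when activity is short, was higher at 0.73 ± 0.30 in adult frontal and 0.78 ± 0.30 in fetal frontal tissue. The median brightness percentile of the regulator probes was 36.7, against 70.8 for the partners.

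Upstream of the proteasome, 36 probes for ubiquitin conjugating enzymes passed 8 higher and 2 lower in adult occipital, where 24.1% of all probes passed higher and 24.1% lower, 11 and 4 in adult frontal, 3 and 1 in fetal occipital and 4 and 3 in fetal frontal tissue. One of the 2 probes of Ube2s, which extends ubiquitin chains for the anaphase-promoting complex, was higher at 1.98 ± 0.34, 2.48 ± 0.34 and 1.98 ± 0.34 in adult occipital, adult frontal and fetal frontal tissue, and Ube2d1 was lower at -1.26 ± 0.28 and -1.79 ± 0.28 in adult occipital and adult frontal cortex. Both probes of the ubiquitin-activating enzyme Uba6 were lower in each adult region, and 1 was lower in fetal occipital wall. Among 12 probes for the segregase Vcp and its adaptors 4 passed higher and 1 lower, 5 and 2, 2 and 1, and 3 and 2 in adult occipital, adult frontal, fetal occipital and fetal frontal tissue. Of 9 probes for the COP9 signalosome, a lid-like complex that removes Nedd8, 1 passed higher and 0 lower, 5 and 0, 0 and 2, and 1 and 0. For interferon-inducible antigen processing, with 17 probes, adult occipital cortex gave 2 higher and 4 lower, adult frontal 3 and 6, fetal occipital 0 and 1 and fetal frontal 2 and 5. Among them Isg15, a ubiquitin-like modifier, was higher at 1.42 ± 0.36, 2.24 ± 0.36 and 1.53 ± 0.36 in adult occipital, adult frontal and fetal frontal tissue, and Ciita, the master regulator of class II genes, was lower at -1.78 ± 0.42, -2.25 ± 0.42 and -1.67 ± 0.42.

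Probes for cell type markers are counted here beside the same shares of all probes, 24.1%, 26.8%, 10.5% and 18.7% higher and 24.1%, 29.4%, 14.2% and 18.4% lower in adult occipital, adult frontal, fetal occipital and fetal frontal tissue. Of 12 neuron marker probes 8 passed higher and 0 lower in each adult region, with medians of 0.92 in occipital and 1.13 in frontal cortex, against 2 and 2 in fetal occipital wall and 2 and 1 in fetal frontal wall, with medians of 0.02 and 0.12. The array medians of these neuron probes ranged from 0.57 to 1.57 in adult occipital and from 0.60 to 1.62 in adult frontal cortex, and from -0.23 to 0.06 in fetal occipital and -0.22 to 0.30 in fetal frontal wall. Of 10 probes for astrocytes and oligodendrocytes 6 passed higher and 0 lower, 7 and 0, 1 and 1, and 3 and 2 in adult occipital, adult frontal, fetal occipital and fetal frontal tissue. Microglia and macrophage probes numbered 10 and passed 2 higher and 2 lower in adult occipital, 3 and 2 in adult frontal, 2 and 0 in fetal occipital and 2 and 1 in fetal frontal tissue, with Aif1 higher and Ptprc lower in both adult regions. Of 11 endothelial and pericyte probes 2 passed higher and 2 lower, 3 and 3, 0 and 2, and 1 and 1 in the same order. Of 6 red blood cell probes 1 passed higher and 4 lower, 1 and 5, 0 and 1, and 1 and 2. The 10 choroid plexus and meninges probes gave 2 higher and 3 lower in each adult region, 0 and 3 in fetal occipital and 1 and 4 in fetal frontal wall, with medians of -0.35, -0.61, -0.37 and -0.70. The part of these cell types in the proteasome ratios was not tested.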

How the data were processed

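The 20 two-colour arrays of mouse cortex compared a cocaine and a saline channel on each slide. The deposited values are log2 ratios; the scanner, image software and normalization were not stated in the sources. Per the labels' protocols RNA was extracted with TRIzol and 5 µg per channel was labelled with dendrimers. The highest value of each array was a marker shared by 6 to 27 spots and was set as missing, array medians were subtracted, and probes with under 3 values in a group were dropped, which removed 8 of 22575. Gene symbols came from the platform annotation, where 18218 probes have 1 symbol, 16 several and 4341 none.

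Group means were fitted over all 20 arrays with limma 3.58.1 in R 4.3.3, with two-sided p-values adjusted by the Benjamini-Hochberg method over all 22567 probes and a threshold of 0.05. The fit was first tested on simulated data. Arrays correlated with each other from -0.044 to 0.855. Nothing in the labels shows whether the frontal and occipital arrays came from the same animals, so p-values measure the spread between slides. Fetal occipital replicates 1 and 1b share a title number and correlated at 0.318.

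The brightness score took for each ratio the 2 lowest whole numbers (at most 400) with that quotient, averaged over arrays. Of 565 ratios of 82 dim spots 95.9% came from whole numbers up to 20 within 0.001 on the log2 scale, against 10.8% of random ratios. Trends were removed by loess with a span of 0.3, or 0.1 for both array directions. The trend in both directions and the set without Psmc3ip and Psme3ip1 were added after seeing the data, as were the alternatives that combine that trend with brightness. The members, gene lists and tests were chosen with earlier results of these data known. Values on every array were given for catalytic subunits, activators, the 2 members of each subset with the smallest p in each group, members passing in opposite directions and members passing a difference. Psmd11 and Psmd2 were added after their values were seen. Of each pathway list up to 3 genes with the smallest p in a group were named. The other alternatives were centring, scaling, quantile normalization, filters, array weights, own arrays only, replicate block, averaged probes and each array left out.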

Additional observations from a re-analysis of the deposited data

Results flagged for a closer look

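The values of 8 arrays or probes stood apart from the other 4 arrays of their group by Dixon's test, out of 100 sets of 5 checked, where chance gives about 1 in 20. The sets share arrays and probes and are not independent, so that rate cannot be read against the 8. In adult occipital cortex replicate 1 had a median over all 49 proteasome probes of 1.192, against 0.47 to 0.575 on the other arrays. On the same array the median of the 22 cap probes was 1.196, against 0.374 to 0.557. Psmb10 stood at 2.859 there, against 1 to 1.347, and Psmc5 at 1.867, against 0.998 to 1.205. In fetal occipital wall replicate 5 had a median of 0.861 over activator, inhibitor and chaperone probes, against -0.242 to 0.021, and a Psmb5 ratio of 1.506, against 0.184 to 0.457. In fetal frontal wall replicate 2 had a median over all members of 1.282, against 0.413 to 0.63. Psmb4 was at -1.627 on fetal frontal replicate 4, against 0.721 to 1.481.

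Psmc4 differed between ages in occipital tissue, with a ratio 1.79 higher on the log2 scale in adults than in fetuses (limma, adjusted p = 0.0435). It did not pass with the replicate block, with any of the 5 trend removals, with fetal frontal replicate 1 turned, on the arrays of these groups alone (adjusted p = 0.0573), or without fetal occipital replicates 1 and 1b together (adjusted p = 0.265). Leaving out any one of 7 single arrays also ended the call.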

How the results depend on the processing

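Counts of proteasome probes passing changed with array trends and with the sign of 1 fetal frontal array. With the brightness trend removed 6, 6, 6 and 3 probes passed in adult occipital, adult frontal, fetal occipital and fetal frontal tissue, with medians of 0.188, 0.180 and 0.117 in the adult occipital, adult frontal and fetal frontal groups. With a trend along the array row removed as well the counts were 6, 9, 2 and 6 and the same 3 medians 0.210, 0.167 and 0.113. With brightness and a trend in both array directions removed they were 8, 12, 1 and 3, and 0.161, 0.197 and 0.197. In adult occipital tissue 8.18% of all probes then passed higher and 7.8% lower, and in adult frontal 11% and 13.8%. In fetal occipital tissue the shares were 2.95% and 4.12%, and in fetal frontal 4.63% and 6.13%. Shares with brightness alone removed are given earlier, and the other counts in this section have no share of all probes beside them. With the trend in both directions alone fetal occipital wall gave 3. Turning the sign of fetal frontal replicate 1 gave 0 in fetal frontal and 8 in fetal occipital wall. Fetal occipital wall gave 6 on its own arrays only and 8 without replicates 1 and 1b together. The number of probes passing the adult minus fetal difference in occipital tissue, 1 as reported, was 5 without centring, 6 with quantile normalization and 6 with array weights, and 0 with fetal frontal replicate 1 turned, the replicate block, any of the 5 trend removals or without fetal occipital replicates 1 and 1b together. On the arrays of these groups only it was 1, but Psmc4 no longer passed (1.79, adjusted p = 0.0573) and another probe passed lower. The occipital minus frontal difference in fetuses gave 1 in place of 0 with arrays scaled to equal spread or quantile normalized.

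Leaving out each array in turn gave 18 to 26 probes passing in adult occipital, 26 to 32 in adult frontal, 7 to 19 in fetal occipital and 10 to 26 in fetal frontal tissue, with medians of 0.54 to 0.71, 0.72 to 0.97, 0.07 to 0.35 and 0.57 to 0.78. The adult minus fetal difference gave 0 to 4 in occipital tissue and the fetal occipital minus frontal difference 0 to 1. Leaving out arrays reversed the sign of 0 single probe results that passed with or without the array. Arrays of different groups were compared in their deviations from the group means. With the same title number 30 pairs correlated from -0.13 to 0.38, with a median of 0.02. The 120 other pairs correlated from -0.41 to 0.40, with a median of -0.01. Trends of single arrays enter these deviations, so they cannot show whether arrays of the same title number share litters or animals. With the replicate block 188 of 197 probe results stayed on the same side, 7 lost and 2 gained a call, and it ended the one age difference that passed. The cause of these changes was not tested.

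With the brightness trend removed, 21 probe results that passed with or without the correction changed sign. Changes of sign in results that passed in neither setting are not counted here or below. In adult occipital tissue these were Psma3 -0.034, Psma4 -0.12, Psmb3 -0.22, Psmc3 -0.33, Psmd13 -0.0198, Psmd4 -0.13, Psme3 -0.0599. In adult frontal tissue these were Psma4 -0.025, Psma7 -0.19, Psmb3 -0.39, Psmc3 -0.19, Psmd12 -0.26, Psmd3 -0.035, Psmd4 -0.28. In fetal frontal tissue these were Psma7 -0.0504, Psmb3 -0.56, Psmc3 -0.036, Psmd12 -0.038, Psmd13 -0.26, Psmd3 -0.029, Psmd4 -0.14.

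With brightness and row trends removed, 22 probe results that passed with or without the correction changed sign. In adult occipital tissue these were Psma4 -0.19, Psma7 -0.029, Psmb3 -0.29, Psmc3 -0.40, Psmd13 -0.063, Psmd4 -0.21. In adult frontal tissue these were Psma4 -0.0086, Psma7 -0.16, Psmb3 -0.39, Psmc3 -0.19, Psmc4 -0.014, Psmd12 -0.32, Psmd3 -0.019, Psmd4 -0.27. In fetal occipital tissue these were Psmb10 -0.17. In fetal frontal tissue these were Psma7 -0.061, Psmb3 -0.59, Psmc3 -0.065, Psmd12 -0.023, Psmd13 -0.25, Psmd3 -0.055, Psmd4 -0.17.

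With brightness and both position trends removed, 27 probe results that passed with or without the correction changed sign. In adult occipital tissue these were Psma3 -0.0796, Psma4 -0.053, Psma7 -0.0201, Psmb3 -0.18, Psmc3 -0.24, Psmd7 0.99. In adult frontal tissue these were Psma4 -0.079, Psma7 -0.21, Psma8 0.10, Psmb3 -0.25, Psmb7 -0.028, Psmc3 -0.19, Psmc4 -0.045, Psmd12 -0.29, Psmd3 -0.062, Psmd9 0.80. In fetal occipital tissue these were Psmb10 -0.32, Psmc3 -0.0063, Psmd12 -0.039, Psmd13 -0.14. In fetal frontal tissue these were Psma3 -0.14, Psma7 -0.30, Psmb3 -0.53, Psmc3 -0.37, Psmd12 -0.30, Psmd13 -0.59, Psmd3 -0.28.

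With the row trend alone, fetal occipital Psmb9 was 0.83 and Psmc1 0.82, and with the trend in both directions Psmb9 was 0.98 and Psma5 0.11. Psmb11 in fetal frontal wall was 0.60 with fetal frontal replicate 1 turned. The filters on missing values, exact 0 as missing, and averaging probes of a gene reversed 0 of the 197 probe results, counting only those that passed in either setting. Signal over background is unknown, so the precision of single ratios is limited by the 5 arrays of a group.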
